A study of Mus musculus with 20 samples.

Results

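The G1 cyclins, their kinases, 2 of their inhibitors and Rb1 were followed as 10 genes across 20 libraries of mouse B220+ cells. The genes are the D-type cyclins Ccnd1, Ccnd2 and Ccnd3, the kinases Cdk4 and Cdk6, the E-type cyclins Ccne1 and Ccne2, the inhibitors Cdkn1b and Cdkn2c, and Rb1. They were chosen by name for their role in the G1 phase, with earlier results of these data known. They were looked up by Ensembl identifier, and all 10 were found among the 37620 genes of the count table. All 10 also passed the filter on low counts, and the lowest count of any of them in any library was 82, for Cdk6 in Myc replicate 5.

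Messenger RNA was measured in 3 groups of mice of the C57BL/6 background. The VavPBcl2/Myc group was 8 libraries from lymphomas that carried added Myc, and the VavPBcl2/vector group was 8 libraries from lymphomas that carried an empty vector. The normal group was 4 libraries from normal spleen. All 16 lymphomas carry a Bcl2 transgene under the Vav promoter, which is active across blood cells and not in B cells alone, so the Myc group differs from the normal group by both Bcl2 and Myc. Cells were taken from the mouse without culture and enriched for B220, a form of CD45 found on B cells, with magnetic beads. No source used here gives the ages of the mice. The labels do not state whether each replicate is a mouse of its own. A p-value here thus covers the spread among the libraries as deposited, which could be technical.

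In G1, D-type cyclins pair with Cdk4 or Cdk6 and phosphorylate the Rb protein, which otherwise holds E2F transcription factors in check. E-type cyclins, themselves E2F targets, then act with Cdk2 to complete that phosphorylation, and the cell enters S phase. Cdkn2c blocks Cdk4 and Cdk6, while Cdkn1b restrains cyclin E with Cdk2 and is removed by the ubiquitin ligase subunit Skp2. Ccnd3 and Ccnd2 are the D-type cyclins best known in B cells. Myc, paired with Max, binds the DNA letters CACGTG, and Cdk4 and Ccnd2 are among its known targets.

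Because the 3 groups differ in Myc, the bases before the start of the genes were searched for CACGTG. RefSeq promoters of build GRCm38.p6 were at hand for 6 of the 10 genes (Cdk4, Cdk6, Ccnd3, Ccne1, Cdkn1b and Cdkn2c). Of these, 3 are shown as examples of genes called between Myc and vector lymphomas: Cdk4 and Ccne1, which were higher, and Cdkn1b, which was lower. The call of Cdkn1b was lost with a term for the sequencing run. Ccnd3, Cdk6 and Cdkn2c, also called over all libraries, are not shown. Each is printed 5′ to 3′ on the gene's strand up to its first annotated exon, with CACGTG in capitals. Cdk4 lies at chr10:127063285-127063533 on the plus strand, Ccne1 at chr7:38107535-38107740 on the minus strand and Cdkn1b at chr6:134920151-134920400 on the plus strand.
Cdk4: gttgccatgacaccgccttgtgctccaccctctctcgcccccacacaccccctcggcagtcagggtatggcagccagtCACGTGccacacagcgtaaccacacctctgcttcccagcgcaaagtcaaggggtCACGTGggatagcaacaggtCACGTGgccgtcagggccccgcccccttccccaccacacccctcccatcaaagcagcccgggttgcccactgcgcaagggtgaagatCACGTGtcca
Ccne1: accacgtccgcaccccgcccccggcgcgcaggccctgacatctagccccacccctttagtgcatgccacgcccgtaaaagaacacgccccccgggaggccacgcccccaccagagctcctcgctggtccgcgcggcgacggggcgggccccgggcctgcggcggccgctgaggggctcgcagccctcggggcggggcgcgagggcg
Cdkn1b: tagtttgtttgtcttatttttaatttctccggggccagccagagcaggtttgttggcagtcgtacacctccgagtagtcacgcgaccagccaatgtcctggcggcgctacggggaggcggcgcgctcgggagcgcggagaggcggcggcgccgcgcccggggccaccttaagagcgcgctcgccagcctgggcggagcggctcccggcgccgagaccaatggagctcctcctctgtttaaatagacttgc

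The Cdk4 window held 4 copies of CACGTG, which begin 172, 118, 98 and 11 bases before the gene start. The Cdk6 window held 1 copy, 220 bases before the start, and the windows of Ccnd3, Ccne1, Cdkn1b and Cdkn2c held none. Among 32851 RefSeq windows of 250 bases, 6.02% held the letters at least once and 0.0213% held them 4 times or more, which is 7 windows. The E2F letters TTTGGCGC, TTTCCCGC, TTTCGCGC and TTTGCCGC, searched on both strands, stood in 1.86% of windows and in none of the members' windows. The word CACGTG reads the same on both strands. A match in letters is a description of the sequence and not a measured binding site.

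The libraries held between 33.5 M and 45.7 M gene counts in Myc lymphomas (M for 1000000), between 28.7 M and 56.3 M in vector lymphomas and between 43.0 M and 52.9 M in normal B cells. Myc transcript lay between 313 and 1646 CPM in Myc lymphomas (CPM, counts per 1000000 gene counts after TMM scaling of the library size), between 48.3 and 226 CPM in vector lymphomas and between 179 and 343 CPM in normal B cells, so Myc replicate 5, the lowest of its group, lay below normal replicate 4. Its TMM factor was 0.676, against 0.913 to 1.122 in the other 19 libraries, which raises its CPM over the plain share of counts. By library size alone its Myc transcript was 211 CPM, below vector replicate 5 at 221 CPM. It was also below normal replicates 1, 2 and 4 at 247, 243 and 382 CPM. Run numbers overlap between the 4 instruments and were compared within each, so the order in time is an inference. By these numbers, vector replicates 1 to 6 and normal replicate 1 came from later runs. The other 13 libraries came from earlier runs, among them all 8 Myc lymphomas. Run and group therefore overlap, and values with a term for the run and within the earlier runs stand beside each comparison. In the earlier runs only vector replicates 7 and 8 stand for the vector group, and they also share a title prefix that no other library has. Of 12 B cell markers, 11 were lower in Myc than in vector lymphomas, 9 were lower in Myc lymphomas than in normal B cells and none differed between vector lymphomas and normal B cells by edgeR (2 at an unadjusted p under 0.05, none by DESeq2). With the run term 10 were lower in Myc than in vector lymphomas, and within the earlier runs 7 were. Of all genes, 21.9% were called lower in Myc than in vector lymphomas and 17.9% lower than in normal B cells. Between vector lymphomas and normal B cells 10.8% of all genes were called either way. Between Myc and vector lymphomas 19% were called either way with the run term and 7.37% within the earlier runs. The summed B cell markers lay between 2616 and 16440 CPM in Myc lymphomas, between 15170 and 24920 CPM in vector lymphomas and between 13140 and 16010 CPM in normal B cells.

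Markers of some other blood cells also differed between the groups. Summed neutrophil markers lay between 1663 and 16590 CPM in Myc lymphomas, between 57.0 and 5899 CPM in vector lymphomas and between 87.5 and 917 CPM in normal B cells. Summed erythroid markers lay between 3549 and 54060 CPM in Myc lymphomas, between 2282 and 10990 CPM in vector lymphomas and between 142 and 1919 CPM in normal B cells, and the highest value was that of Myc replicate 5. Higher in Myc than in vector lymphomas were 8 of 9 NK and cytotoxic, 6 of 10 neutrophil, 5 of 8 plasmacytoid dendritic, 3 of 10 erythroid, 3 of 10 T cell, 2 of 11 stromal and 1 of 11 macrophage markers. Lower were 2 plasmacytoid dendritic markers and 1 each of the T cell, stromal and macrophage markers. Of all genes 26.6% were called higher and 21.9% lower. The higher calls of erythroid, T cell, stromal and macrophage markers were near or below that share. With the run term edgeR called 7 NK and cytotoxic markers higher but 0 neutrophil and 0 erythroid markers (1 of each at an unadjusted p under 0.05). Within the earlier runs it called 3 NK and cytotoxic, 0 neutrophil and 0 erythroid markers (unadjusted, 1 neutrophil marker lower and 6 erythroid markers higher). Of all genes edgeR called 19% either way with the run term and 7.37% within the earlier runs. Against normal B cells, Myc lymphomas were higher for 10 of 10 erythroid, 9 of 10 neutrophil and 6 of 9 NK and cytotoxic markers, and vector lymphomas were higher for 9 of 10 erythroid markers and lower for 6 of 9 NK and cytotoxic markers. Of all genes 21.5% were called higher in Myc lymphomas, and in vector lymphomas 7.46% were called higher and 3.36% lower. In Myc lymphomas against normal B cells the 10 erythroid calls held with the run term and within the earlier runs, and 8 neutrophil calls were made in each. In vector lymphomas against normal B cells the erythroid calls came to 0 with the run term (9 at an unadjusted p under 0.05) and 0 within the earlier runs (0 unadjusted), and the NK and cytotoxic calls to 5 and 0 (4 unadjusted). Against normal B cells, the run term left 36.9% of all genes called in Myc lymphomas and 6.87% in vector lymphomas. Within the earlier runs these shares were 20.6% and 0.665%. Only Dcn, a stromal gene, was at 0 in any library. In these bulk samples fewer cells of a type and less RNA per cell cannot be told apart, and the part of the other cells in the values below was not tested.

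**Figure D1:**
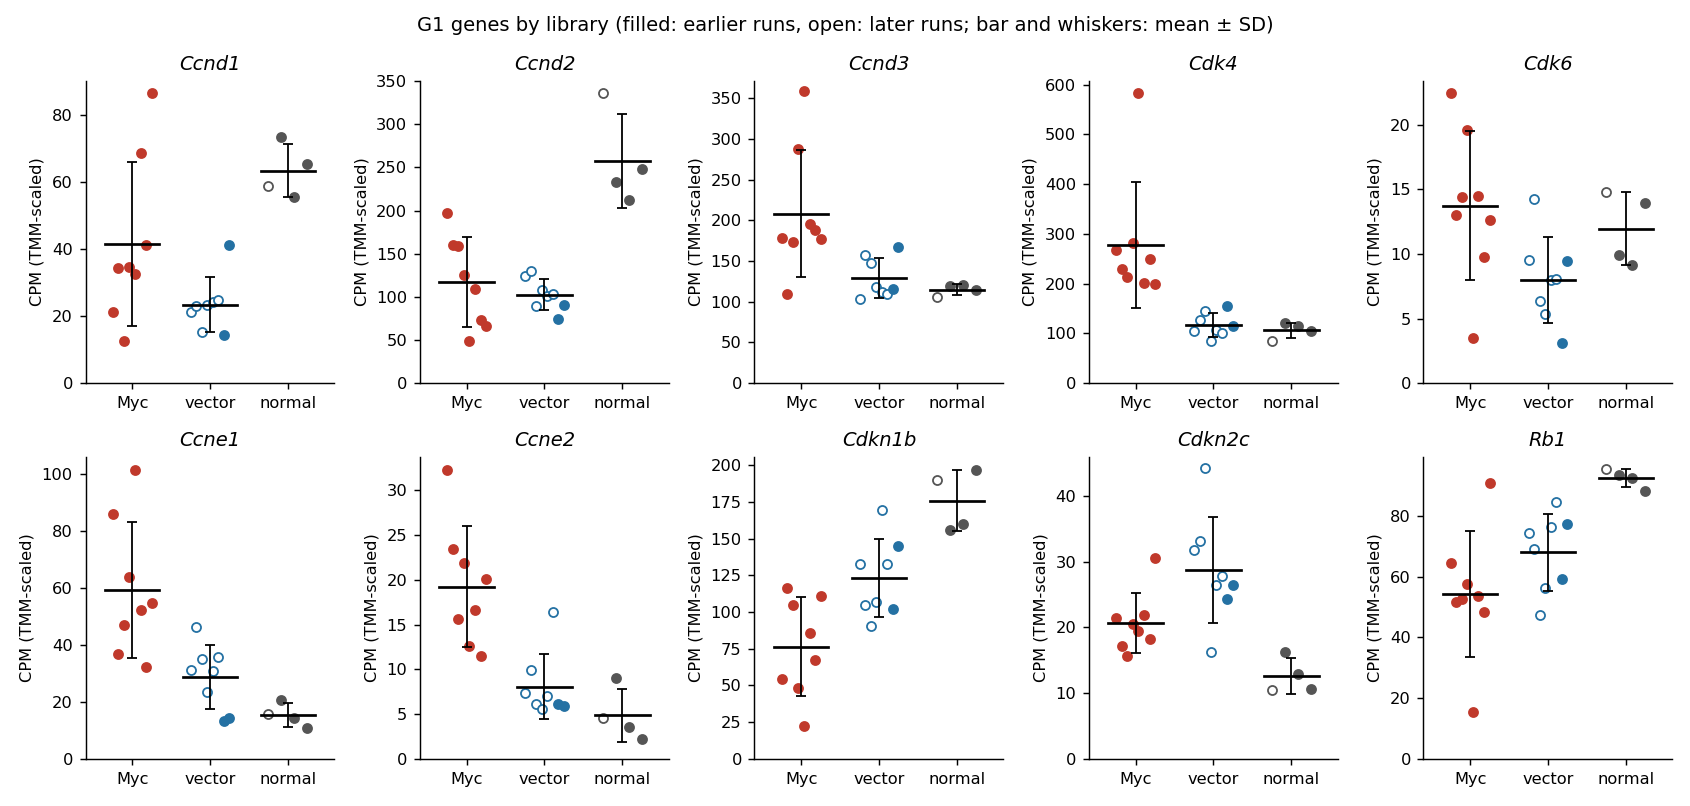
CPM of each of the 10 G1 genes (y axis, TMM-scaled) in every library of the Myc lymphomas, vector lymphomas and normal B cells (x axis), with the mean and SD of each group. Filled points are libraries of the earlier runs and open points those of the later runs. All 8 Myc lymphomas lie above every other library for Cdk4, and all 16 lymphomas lie below the normal libraries for Ccnd2.

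Myc and vector lymphomas differ by added Myc within the VavPBcl2 model. The libraries of these groups also differ in sequencing runs, title prefixes and blood cell markers, and the design cannot tell these apart. Cdk4, both E-type cyclins, Ccnd3, Ccnd1 and Cdk6 were higher in Myc lymphomas, Cdkn1b and Cdkn2c were lower, and Ccnd2 and Rb1 did not pass the test. That is 8 of 10 genes called at an adjusted p under 0.05, where 48.6% of all 17824 genes tested were called. In the higher direction it is 6 of 10, where 26.6% of all genes were called, and in the lower direction 2 of 10, where 21.9% were. The median log2 fold change was 0.74 over the 10 genes and 0.09 over all genes. The genes and lists were chosen with earlier results of these data known, so counts beside such shares are descriptions. The test was edgeR's quasi-likelihood F test, two-sided, with Benjamini-Hochberg adjustment over all genes, in 1 fit of the 20 libraries. With a term for the run, 3 of the 10 remained called (Cdk4, Ccne1 and Ccne2), where 19% of all genes were. Within the earlier runs 1 did (Ccne1), where 7.37% were.

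Compared with normal B cells, Myc lymphomas had more Ccne1, Ccne2, Cdk4, Ccnd3 and Cdkn2c and less Cdkn1b, Ccnd2 and Rb1. That is 8 of 10 genes called, where 39.4% of all genes were. It is 5 of 10 in the higher direction, where 21.5% of all genes were called, and 3 of 10 in the lower direction, where 17.9% were. The median log2 fold change was 0.46 over the 10 genes and 0.08 over all. The same 8 were called with the run term, where 36.9% of all genes were, and 4 (Ccne1, Ccne2, Cdk4 and Cdkn1b) within the earlier runs, where 20.6% were.

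Compared with normal B cells, vector lymphomas had more Cdkn2c and less Ccnd2 and Ccnd1, and the other 7 genes did not pass. That is 3 of 10 called, where 10.8% of all genes were, with 1 higher (7.46% of all genes) and 2 lower (3.36% of all genes). The median log2 fold change was -0.15 over the 10 genes and -0.03 over all. The same 3 were called with the run term, where 6.87% of all genes were. In the earlier runs alone edgeR called none of the 10, where it called 0.665% of all genes, and 2 of the 10 had an unadjusted p under 0.05. These 3 comparisons share libraries, so their values are given side by side. Without Myc replicate 5 the 10 genes gave 8, 8 and 4 calls in the 3 comparisons, where 48.9%, 41.8% and 16.8% of all genes were called.

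**Figure D2:**
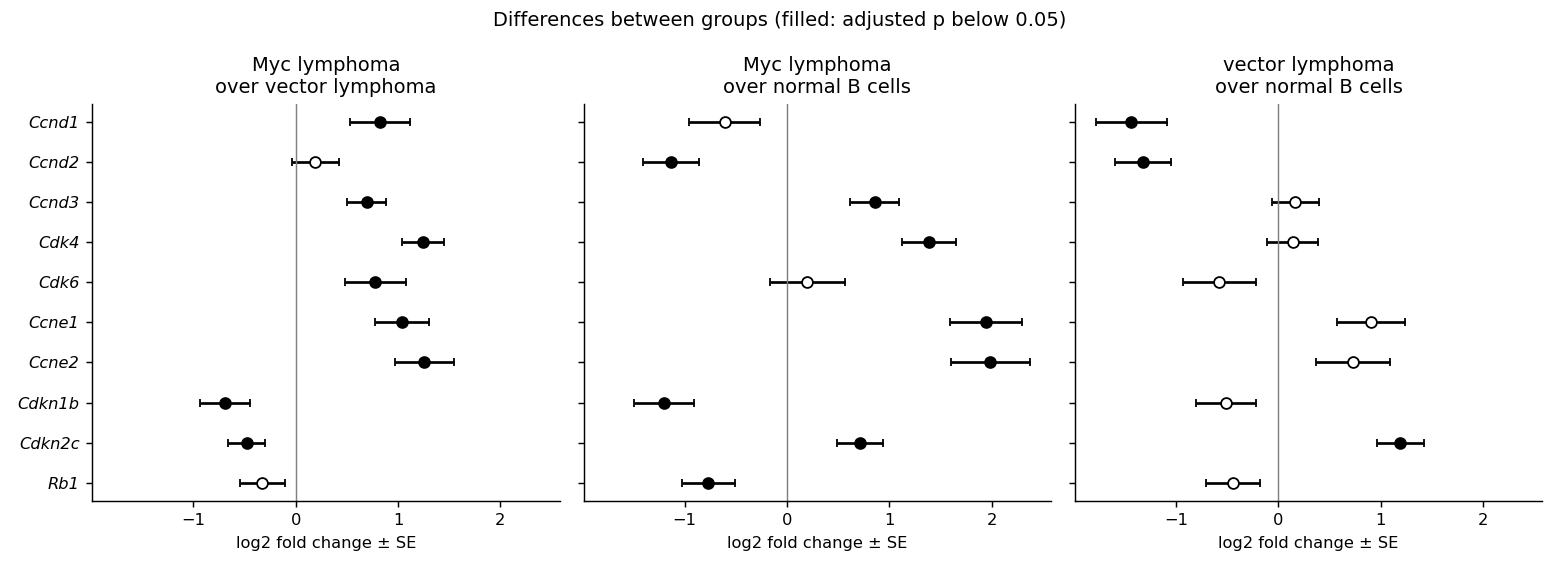
Log2 fold change (x axis) with its standard error for each of the 10 genes (y axis) in Myc over vector lymphomas, Myc lymphomas over normal B cells and vector lymphomas over normal B cells. Filled points have an adjusted p below 0.05. Filled points number 8, 8 and 3, and Cdkn2c is the 1 gene called lower in the first comparison and higher in the other 2.

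Ccnd3 (ENSMUSG00000034165, chromosome 17) had 110 CPM in the lowest, 183 CPM in the median and 358 CPM in the highest Myc lymphoma. It had 103, 117 and 167 CPM at the same points of the vector lymphomas, and 106, 120, 120 and 114 CPM in the 4 normal libraries. Of the 8 Myc lymphomas, 7 lay above every vector lymphoma and above every normal library, while vector and normal libraries overlapped. Ccnd3 in Myc lymphomas was 1.62-fold the level of vector lymphomas (0.69 ± 0.19 on the log2 scale, SE, adjusted p = 0.00509 by edgeR) and 1.81-fold that of normal B cells (0.86 ± 0.24, 0.00811). Its difference from vector lymphomas was 0.56 with the run term (0.153) and 0.57 within the earlier runs (0.382), so that call was lost in both. Against normal B cells it was lost within the earlier runs (0.84, 0.0673).

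Ccnd2 (ENSMUSG00000000184, chromosome 6) had 49.0, 118 and 197 CPM in the lowest, median and highest Myc lymphoma and 74.2, 102 and 130 CPM in the vector lymphomas. The normal libraries held 336, 233, 212 and 249 CPM. Both lymphoma groups lay wholly below the normal libraries and overlapped each other. Ccnd2 fell by 1.13 ± 0.28 on the log2 scale in Myc lymphomas relative to normal B cells (2.19-fold lower, adjusted p = 0.00315) and by 1.33 ± 0.27 in vector lymphomas (2.51-fold lower, 0.00352). Among earlier runs these were -0.94 (0.0707) and -1.47 (0.291), neither of them called. Between Myc and vector lymphomas the log2 fold change was 0.19 ± 0.23 (0.51). The Myc lymphomas split by the first part of their titles: replicates 5 to 8 held 49.0 to 110 CPM and replicates 1 to 4 held 126 to 197 CPM, with no overlap.

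Ccnd1 (ENSMUSG00000070348, chromosome 7) had 12.7, 34.6 and 86.5 CPM in the lowest, median and highest Myc lymphoma and 14.3, 23.2 and 41.1 CPM in the vector lymphomas. Normal B cells had 59.0, 73.6, 55.7 and 65.5 CPM. All vector lymphomas lay below all normal libraries, while 6 of the 8 Myc lymphomas lay below them and 1 (replicate 8) above. Ccnd1 fell by 1.44 ± 0.35 on the log2 scale in vector lymphomas relative to normal B cells (2.71-fold lower, adjusted p = 0.00974), and by 1.21 within the earlier runs (0.642). In Myc lymphomas it was 1.77-fold the level of vector lymphomas (0.83 ± 0.29, 0.0254). That call was lost without Myc replicate 6 (0.0755), without Myc replicate 8 (0.0782), with the run term (0.63, 0.312) and within the earlier runs (0.59, 0.586). Myc lymphomas against normal B cells gave -0.61 ± 0.35 (0.168), which became -0.85 (0.0397) without Myc replicate 8. Myc replicates 5 to 8 held 32.7 to 86.5 CPM, and Myc replicates 1 to 4 held 12.7 to 34.8 CPM.

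The share of each D-type cyclin was computed within each library from CPM per kilobase of principal transcript, as a description without a test. Ccnd3 made up 75.1 ± 9.34% of D-type cyclin transcripts in Myc lymphomas, 72.8 ± 4.63% in vector lymphomas and 48.7 ± 4.98% in normal B cells (SD, n = 8, 8 and 4). The lymphoma libraries ran from 60.1 to 91.1% (Myc) and from 65.8 to 79.3% (vector), all above the normal libraries at 42.1 to 54.1%. Ccnd2, part of the same sum, already lay below all normal libraries in both lymphoma groups, so the share is no separate result. Ccnd3 itself overlapped between vector and normal libraries. Ccnd2 took 15.8% in Myc lymphomas, 19.7% in vector lymphomas and 36.1% in normal B cells. Ccnd1 took 9.10% in Myc lymphomas, 7.47% in vector lymphomas and 15.2% in normal B cells. With all annotated exons as the length, the Ccnd3 share was 51.7% in Myc lymphomas, 48.0% in vector lymphomas and 24.5% in normal B cells. The lymphoma libraries again lay above the normal ones, and in normal B cells Ccnd2 had the largest share, 50.4%. The summed D-type cyclin level was 128 ± 32.1 CPM per kb in Myc lymphomas, 83.5 ± 13.04 in vector lymphomas and 112 ± 5.53 in normal B cells. With all annotated exons it was 45.0 ± 6.52 in Myc lymphomas, 30.6 ± 4.39 in vector lymphomas and 53.9 ± 4.97 in normal B cells, so the order of Myc lymphomas and normal B cells turns with the length used.

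**Figure D3:**
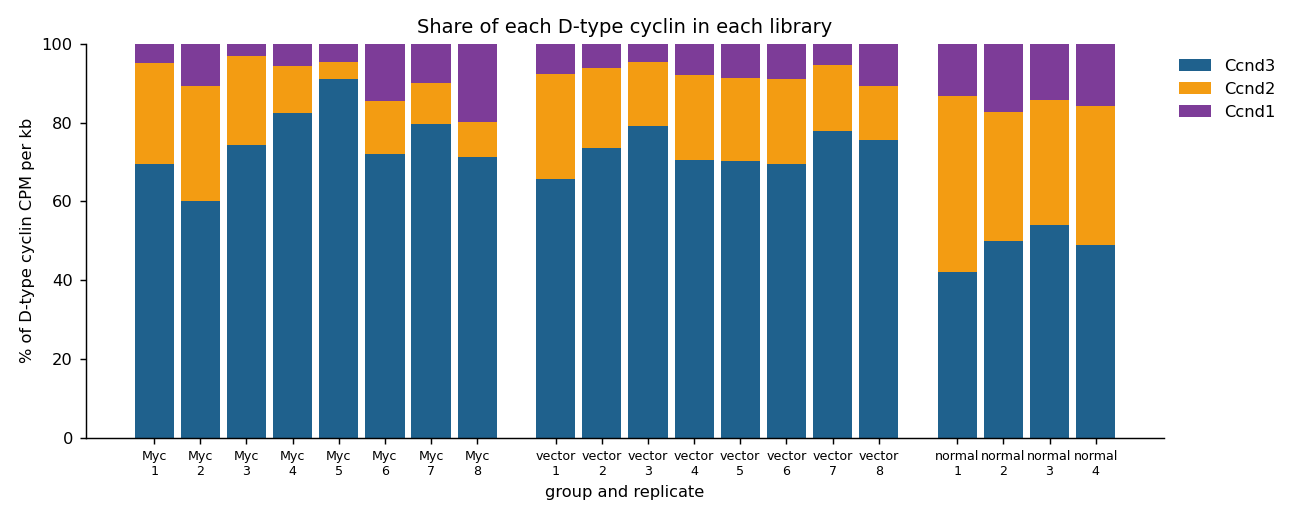
Share of Ccnd3, Ccnd2 and Ccnd1 (stacked bars, % of summed D-type cyclin CPM per kb of principal transcript, y axis) in each of the 20 libraries (x axis). The Ccnd3 share is at least 60.1% in every lymphoma and at most 54.1% in every normal library. Ccnd2, part of the same sum, is itself below the normal libraries in every lymphoma.

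Cdk4 (ENSMUSG00000006728, chromosome 10) had 199, 240 and 582 CPM in the lowest, median and highest Myc lymphoma and 84.5, 110 and 155 CPM in the vector lymphomas. In normal B cells the libraries held 85.8, 120, 114 and 105 CPM. It was the 1 gene of the 10 for which all Myc lymphomas lay above all vector lymphomas, where 5.12% of all genes did (6.38% had all Myc lymphomas below), and vector and normal libraries overlapped. Cdk4 in Myc lymphomas was 2.37-fold the level of vector lymphomas (1.25 ± 0.20 on the log2 scale, SE, adjusted p = 6.39e-05 by edgeR) and 2.61-fold that of normal B cells (1.39 ± 0.26, 0.000453). Against vector lymphomas it remained called with the run term (1.01 ± 0.29, 0.019), and within the earlier runs it had 1.05 ± 0.38 (0.112). Against normal B cells it remained called within the earlier runs (1.31 ± 0.33, 0.0133). Vector lymphomas against normal B cells gave 0.14 ± 0.25 (0.773).

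Myc replicate 5, the lowest of its group in Myc transcript, held 582 CPM of Cdk4, and the next Myc lymphoma held 281 CPM. Without replicate 5 and in the other 19 fits that each left out 1 library, the log2 fold change over vector lymphomas stayed between 1.01 and 1.32, and the call held in each. Cdk4 shares 641 exon bases with Tspan31 on the opposite strand in GENCODE vM21, and no source used here tells whether the counting used strand. Tspan31 averaged 31.0 CPM in Myc lymphomas, 23.1 CPM in vector lymphomas and 25.5 CPM in normal B cells and did not pass the test between Myc and vector lymphomas (0.42 ± 0.22, adjusted p = 0.122 by edgeR).

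Cdk6 (ENSMUSG00000040274, chromosome 5) had 3.53, 13.7 and 22.4 CPM in the lowest, median and highest Myc lymphoma and 3.13, 8.02 and 14.2 CPM in the vector lymphomas. The 4 normal libraries had 14.8, 9.94, 9.18 and 13.9 CPM, inside the range of the Myc lymphomas. Of the 8 Myc lymphomas, 4 lay above every vector lymphoma. Cdk6 in Myc lymphomas was 1.71-fold the level of vector lymphomas (0.78 ± 0.30, adjusted p = 0.0373 by edgeR), and that call was lost without any 1 of vector replicates 3 to 7 or Myc replicates 1, 3, 4 and 6 (adjusted p = 0.0534 to 0.0846). It was also lost with the run term (0.0774) and within the earlier runs (1.14, 0.255). Neither Myc lymphomas (0.20 ± 0.37, 0.686) nor vector lymphomas (-0.58 ± 0.36, 0.341) passed against normal B cells. Per kilobase of principal transcript, Cdk4 exceeded Cdk6 by a median of 85.8 times in Myc lymphomas, 72.4 times in vector lymphomas and 55.2 times in normal B cells.

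Ccne1 (ENSMUSG00000002068, chromosome 7) had 32.5, 53.6 and 102 CPM in the lowest, median and highest Myc lymphoma and 13.5, 31.0 and 46.3 CPM in the vector lymphomas. Normal B cells held 15.7, 20.7, 14.3 and 10.9 CPM. All Myc lymphomas lay above all normal libraries, and 6 of 8 lay above all vector lymphomas. Ccne1 in Myc lymphomas was 2.06-fold the level of vector lymphomas (1.04 ± 0.26 on the log2 scale, SE, adjusted p = 0.00288 by edgeR). It is the 1 gene of the 10 that remained called within the earlier runs (2.10 ± 0.45, 0.0116), and with the run term it had 1.78 ± 0.38 (0.0027). It was 3.86-fold higher in Myc lymphomas than in normal B cells (1.95 ± 0.35, 0.000284), with a log2 fold change of 1.98 (0.00304) when only earlier runs were fitted.

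The vector lymphomas divided for Ccne1 by run and equally by title prefix, which cannot be told apart here. Replicates 7 and 8, of the earlier runs and a prefix of their own, held 13.5 and 14.5 CPM. These values lay inside the range of the normal libraries. Replicates 1 to 6, of the later runs and other prefixes, held 23.4 to 46.3 CPM. Replicates 7 and 8 are the whole vector group of the fits within the earlier runs. Over all runs vector lymphomas against normal B cells gave 0.90 ± 0.33 (adjusted p = 0.0871 by edgeR), with the run term 0.34 (0.642) and within the earlier runs -0.11 (0.982). The first of these passed the test without vector replicate 7 (0.041), vector replicate 8 (0.045) or Myc replicate 5 (0.0446).

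Ccne2 (ENSMUSG00000028212, chromosome 4) had 11.5, 18.4 and 32.2 CPM in the lowest, median and highest Myc lymphoma and 5.60, 6.60 and 16.4 CPM in the vector lymphomas. The normal libraries held 4.54, 9.07, 3.54 and 2.26 CPM. All Myc lymphomas lay above all normal libraries, and 5 of 8 lay above all vector lymphomas. Ccne2 in Myc lymphomas was 2.39-fold the level of vector lymphomas (1.26 ± 0.29, adjusted p = 0.00141 by edgeR). It had 1.52 with the run term (0.0213) and 1.70 within the earlier runs, where the call was lost (0.0649). It was 3.96-fold higher in Myc lymphomas than in normal B cells (1.99 ± 0.38, 0.000525), and the call held within the earlier runs (1.99, 0.00822). Vector lymphomas against normal B cells gave 0.73 ± 0.36 (0.218), which became 1.26 (0.0449) without normal replicate 2.

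Cdkn1b (ENSMUSG00000003031, chromosome 6) had 22.4, 76.5 and 117 CPM in the lowest, median and highest Myc lymphoma and 90.6, 120 and 170 CPM in the vector lymphomas. Normal B cells had 190, 156, 160 and 197 CPM. All Myc lymphomas lay below all normal libraries, 5 of 8 lay below all vector lymphomas, and 7 of 8 vector lymphomas lay below all normal libraries. Cdkn1b fell by 1.20 ± 0.29 on the log2 scale in Myc lymphomas relative to normal B cells (2.30-fold lower, adjusted p = 0.00297 by edgeR), and by 1.14 within the earlier runs (0.0399). Relative to vector lymphomas it fell by 0.69 ± 0.25 (1.61-fold lower, 0.0255). That call was lost without vector replicate 5 (0.055), with the run term (-0.65, 0.189) and within the earlier runs (-0.69, 0.368). Vector lymphomas against normal B cells gave -0.51 ± 0.29 (0.298).

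Cdkn2c (ENSMUSG00000028551, chromosome 4) had 15.7, 20.01 and 30.6 CPM in the lowest, median and highest Myc lymphoma and 16.3, 27.2 and 44.2 CPM in the vector lymphomas. In normal B cells the libraries held 10.5, 16.3, 12.9 and 10.7 CPM. In both lymphoma groups 7 of 8 libraries lay above all normal libraries. Cdkn2c was 2.28-fold higher in vector lymphomas than in normal B cells (log2 fold change 1.19 ± 0.23 SE, adjusted p = 0.00214 by edgeR), and within the earlier runs it had 0.94 (0.231). It was 1.64-fold higher in Myc lymphomas than in normal B cells (0.71 ± 0.22, 0.0166), a call lost without normal replicate 1 (0.0569), without normal replicate 4 (0.055) and within the earlier runs (0.66, 0.0646). Relative to vector lymphomas it fell by 0.48 ± 0.18 in Myc lymphomas (1.40-fold lower, 0.0305). This was lost without any 1 of vector replicates 1 to 3 or Myc replicates 2 and 3 (0.0524 to 0.0832), with the run term (-0.44, 0.253) and within the earlier runs (-0.28, 0.573).

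Rb1 (ENSMUSG00000022105, chromosome 14) had 15.4, 53.1 and 90.8 CPM in the lowest, median and highest Myc lymphoma and 47.3, 71.8 and 84.7 CPM in the vector lymphomas. The 4 normal libraries had 95.4, 93.7, 92.7 and 88.4 CPM. All vector lymphomas and 7 of 8 Myc lymphomas lay below all normal libraries, and the 2 lymphoma groups overlapped. Rb1 fell by 0.77 ± 0.26 on the log2 scale in Myc lymphomas relative to normal B cells (1.70-fold lower, adjusted p = 0.0247 by edgeR). The call was lost without any 1 of the 4 normal libraries (0.0526 to 0.074) and within the earlier runs (-0.72, 0.144), and held with the run term (-0.76, 0.0351). Vector lymphomas against normal B cells gave -0.44 ± 0.26 (0.323), and Myc against vector lymphomas gave -0.33 ± 0.22 (0.225). The highest library held 5.91 times the Rb1 of the lowest in Myc lymphomas, 1.79 times in vector lymphomas and 1.08 times in normal B cells. The ratio in Myc lymphomas rests on replicate 5 at 15.4 CPM, and the next lowest, replicate 7, held 48.3 CPM.

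The groups did not overlap for 5 of the 10 genes between Myc lymphomas and normal B cells (Cdk4, Ccne1 and Ccne2 above, Ccnd2 and Cdkn1b below), where 27.4% of all genes did not. Between vector lymphomas and normal B cells it was 3 of 10 (Ccnd1, Ccnd2 and Rb1, all below), where 13.2% of all genes did not overlap, 7.33% with all vector lymphomas above and 5.91% with all below. Between Myc and vector lymphomas it was 1 of 10, where 11.5% did not. In the comparison of Myc lymphomas with normal B cells 13.1% of all genes lay above and 14.3% below. Myc replicate 5 was at the edge of its group for 7 of the 10 genes. By TMM-scaled CPM it had the highest Cdk4, Ccnd3 and Ccne1, and the lowest Ccnd2, Cdk6, Cdkn1b and Rb1. Scaled by library size alone it was still highest for Cdk4 (393 CPM, with 276 CPM in Myc replicate 4) and lowest for those 4 genes, and it was lowest for Ccne2 and Cdkn2c as well. On that scale its Ccnd3 was 242 CPM, below 283 CPM in Myc replicate 4, and its Ccne1 was 68.6 CPM, below 85.6 CPM in Myc replicate 1.

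**Figure D4:**
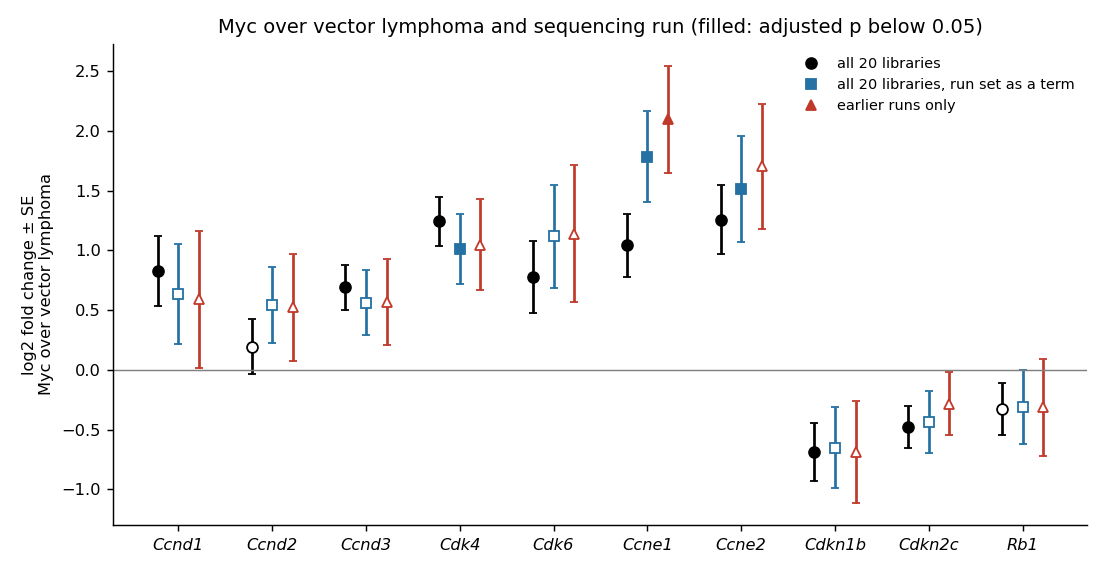
Log2 fold change of Myc over vector lymphomas (y axis) with its standard error for the 10 genes (x axis), over all 20 libraries, with a term for the sequencing run, and within the earlier runs, where 8 Myc lymphomas meet 2 vector lymphomas. Filled symbols have an adjusted p below 0.05. The sign is the same in the 3 fits for each gene, Ccne1 widens to 1.78 with the run term and 2.10 within the earlier runs against 1.04 over all libraries, and the number of filled symbols is 8, 3 and 1.

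Per kilobase of principal transcript, the 10 genes had a different order in each group. In Myc lymphomas Cdk4 was first with 135 ± 61.6 CPM per kb, and Ccnd3 with 98.6 ± 36.7 lay within its spread, while Ccne1 followed with 29.7 ± 11.9 (SD, n = 8). Then came Ccnd2 (18.5), Cdkn1b (16.8), Rb1 (11.7), Ccnd1 (11.1), Cdkn2c (8.35), Ccne2 (6.40) and Cdk6 (1.19). In vector lymphomas Ccnd3 (61.0 ± 11.6) and Cdk4 (57.1 ± 11.6) led within each other's spread, followed by Cdkn1b (27.0), Ccnd2 (16.2), Rb1 (14.6), Ccne1 (14.4), Cdkn2c (11.7), Ccnd1 (6.27), Ccne2 (2.68) and Cdk6 (0.695). In normal B cells Ccnd3 (54.4 ± 3.22) and Cdk4 (51.8 ± 7.32) again lay within their spread, as did Ccnd2 (40.7 ± 8.57) and Cdkn1b (38.6 ± 4.57). Below them came Rb1 (19.9), Ccnd1 (17.0), Ccne1 (7.69), Cdkn2c (5.10), Ccne2 (1.61) and Cdk6 (1.04). Neighbours from Ccnd2 to Ccne2 in Myc lymphomas, and from Ccnd2 to Cdkn2c in vector lymphomas, differed by less than the larger SD of the pair. The order depends on the length: with all annotated exons Cdkn1b was first in normal B cells (38.6 CPM per kb) and Ccnd3 sixth (13.1).

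Set against Cdkn1b, Cdk4 per kilobase had a median ratio of 6.71 in Myc lymphomas, 1.76 in vector lymphomas and 1.39 in normal B cells. It lay between 3.97 and 57.6 in Myc lymphomas, between 1.39 and 3.55 in vector lymphomas and between 1.00 and 1.71 in normal B cells. The Myc lymphomas did not overlap the other groups. They already did not for Cdk4 alone, so the ratio adds no separate result. Ccne1 was a median of 1.26 times Cdkn1b in Myc lymphomas, 0.517 times in vector lymphomas and 0.196 times in normal B cells. Ccne1 over Ccne2 had a median of 4.31 in Myc lymphomas, 6.34 in vector lymphomas and 5.62 in normal B cells, and these ranges overlapped.

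Among 35 other G1 and G1/S regulators, 15 were higher and 6 lower in Myc than in vector lymphomas, with a median log2 fold change of 0.37. Over all genes 26.6% were called higher and 21.9% lower, so the lower calls of the list were no more frequent than that share. Adding the run term left 12 higher and 2 lower, where 19% of all genes were called either way. Skp2, which marks Cdkn1b for removal, was higher by 1.19 ± 0.16 on the log2 scale (adjusted p = 5.32e-06 by edgeR), and its partner Cks1b by 1.73 ± 0.26 (3.09e-05). Tfdp1, the dimer partner of E2F proteins, was higher by 1.11 ± 0.15 (7.72e-06). Cdkn2a, whose locus encodes an inhibitor of Cdk4 and Cdk6 and the p53 activator Arf, was also higher, by 1.63 ± 0.29 (0.000135). Lower were Lin52, a subunit of the complex that represses cell cycle genes in resting cells (-1.08, 4.95e-05), and Dyrk1a, the kinase that assembles it (-0.83, 0.00269). E2f5, an E2F that acts with the pocket proteins (-1.24, 5.77e-05), and Ambra1, which marks D-type cyclins for removal (-0.74, 0.00143), were lower as well. Lin9, Lin37 and Lin54 are the other Lin genes of the list. Their mean levels were 13.96, 22.35 and 17.93 CPM in Myc lymphomas and 13.91, 24.9 and 16.91 CPM in vector lymphomas. Within the earlier runs 3 of the 35 were higher and 1 lower, with a median of 0.41, where 7.37% of all genes were called.

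Against normal B cells, 16 of the 35 were higher and 5 lower in Myc lymphomas (median 0.53), where 21.5% of all genes were higher and 17.9% lower. A fit with the run term had 16 higher and 4 lower, and within the earlier runs 13 were higher and 1 lower. Of all genes 36.9% and 20.6% were called either way in these fits. Cdkn2a was higher by 3.97 ± 0.43 (adjusted p = 1.71e-06 by edgeR), at 7.06 CPM in Myc lymphomas and 0.447 CPM in normal B cells. Cdkn1a, an inhibitor of cyclin-dependent kinases induced by p53, was higher by 2.85 ± 0.39 (1.71e-05), at 42.1 CPM in Myc lymphomas and 5.83 CPM in normal B cells. Cks1b was higher by 2.59 (2.37e-05) and Tfdp1 by 1.45 (1.61e-05). Trim21, a ubiquitin ligase, was 2.01-fold lower (0.000624), as were Lin52 (-0.76, 0.00654), Gsk3b, a kinase of cyclin D1 (-0.72, 0.0153), and Dyrk1a (-0.73, 0.0227).

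Vector lymphomas against normal B cells had 7 of the 35 higher and none lower by edgeR (2 lower at an unadjusted p under 0.05, none lower by DESeq2), with a median of 0.26. Of all genes 7.46% were called higher and 3.36% lower. Cdkn2a was higher by 2.34 ± 0.40 (adjusted p = 0.000686), the E2F factors E2f8 by 1.42 (0.0124) and E2f1 by 0.80 (0.0158), and Cdkn1a by 1.32 ± 0.35 (0.0183). Under the run term 3 of the 35 were called, where 6.87% of all genes were. In the earlier runs alone 1 was, where 0.665% were. Skp2 had -0.49 ± 0.19 in this comparison (0.0988).

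Most S phase genes that E2F switches on were higher in Myc lymphomas than in normal B cells, and over all runs most were higher in vector lymphomas too. Of 26, 18 were higher in Myc than in vector lymphomas (median 0.53), 24 in Myc lymphomas than in normal B cells (1.41) and 18 in vector lymphomas than in normal B cells (0.86). None of the 26 was lower by edgeR or DESeq2, nor at an unadjusted p under 0.05. Of all genes 26.6%, 21.5% and 7.46% were called higher in these 3 comparisons. In Myc over vector lymphomas the smallest p-values belonged to Gins1, a subunit of the replicative helicase (log2 fold change 1.59, adjusted p = 3.9e-05), Ccna2, the S phase cyclin (1.33, 5.64e-05), Orc1, which marks replication origins (1.38, 0.000198), and Tyms, which makes thymidylate (1.22, 0.000247). In Myc lymphomas over normal B cells they belonged to Ccna2 (2.49, 4.87e-06), Orc1 (2.98, 5.22e-06), Tyms (2.30, 1.79e-05) and the helicase subunit Mcm2 (1.29, 2.66e-05). In vector lymphomas over normal B cells they belonged to Rrm2, a subunit of ribonucleotide reductase (1.82, 0.00227), Cdc6, which loads the helicase (1.56, 0.00237), Mcm2 (0.88, 0.00302) and Orc1 (1.60, 0.00358). With the run term the counts were 15, 24 and 8, where 19%, 36.9% and 6.87% of all genes were called either way. Among earlier runs the counts were 4, 23 and 0, and 4 of the 26 had an unadjusted p under 0.05 in the last of these. There 7.37%, 20.6% and 0.665% of all genes were called in the 3 comparisons.

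Most mitosis genes were also higher in both lymphoma groups than in normal B cells over all runs. Of 18, 13 were higher in Myc than in vector lymphomas (median 0.75), 18 in Myc lymphomas than in normal B cells (1.91) and 16 in vector lymphomas than in normal B cells (1.20), and none was lower by either tool or at an unadjusted p under 0.05. The shares of all genes called higher were 26.6%, 21.5% and 7.46%. In Myc over vector lymphomas Cdc20, an activator of the anaphase ligase, had a log2 fold change of 1.26 (adjusted p = 2.18e-05 by edgeR), the spindle kinase Aurkb 1.06 (2.69e-05), the mitotic kinase Cdk1 1.42 (3.94e-05) and its cyclin Ccnb1 1.32 (4.14e-05). In Myc lymphomas over normal B cells the mitotic kinase Plk1 had 2.48 (6.32e-07), Cdc20 2.53 (9.8e-07), Ccnb1 2.77 (1.19e-06) and the kinesin Kif20a 2.06 (1.42e-06). In vector lymphomas over normal B cells Plk1 had 1.55 (0.000237), the spindle assembly factor Tpx2 1.48 (0.000621), Kif20a 1.21 (0.000894) and the cyclin Ccnb2 1.49 (0.00107). With the run term the counts were 9, 18 and 12, and within the earlier runs 2, 18 and 0, where 14 of the 18 had an unadjusted p under 0.05 in the last. Of all genes 19%, 36.9% and 6.87% were called either way with the run term. Within the earlier runs it was 7.37%, 20.6% and 0.665%.

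The S phase genes summed to between 2199 and 3785 CPM in Myc lymphomas, between 1488 and 2647 CPM in vector lymphomas and between 975 and 1265 CPM in normal B cells. The mitosis genes summed to between 1589 and 3120 CPM in Myc lymphomas, between 832 and 2074 CPM in vector lymphomas and between 485 and 928 CPM in normal B cells. For the S phase genes every lymphoma lay above every normal library, and for mitosis vector and normal libraries overlapped. The vector lymphomas, in which most S phase and mitosis genes were higher than in normal B cells over all runs, had values of 0.14 for Cdk4, 0.90 for Ccne1 and 0.73 for Ccne2 in that comparison, none of which passed the test. Erythroid markers were called higher in Myc lymphomas than in normal B cells in each of these fits. In vector lymphomas they were called only over all runs without a run term (9 by edgeR, 10 by DESeq2). Their median log2 fold change in vector lymphomas was 2.67 over all runs, 2.50 with the run term and 1.49 within the earlier runs. The part of erythroid cells in these lists was not tested. Without Myc replicate 5 the calls in the 3 comparisons were 23, 22 and 9 of the other G1 genes, 20, 26 and 22 of the S phase genes and 15, 18 and 18 of the mitosis genes. Of all genes 48.9%, 41.8% and 16.8% were called in that fit.

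**Figure D5:**
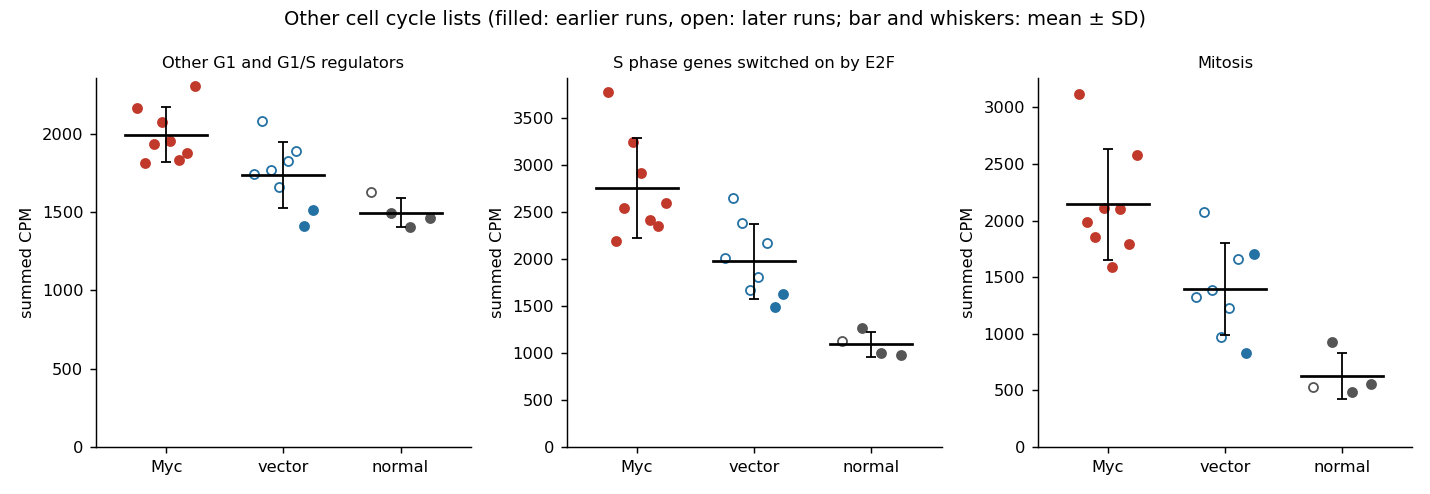
Summed CPM (y axis) of the 35 other G1 and G1/S regulators, the 26 S phase genes and the 18 mitosis genes in each library of the Myc lymphomas, vector lymphomas and normal B cells (x axis), with the mean and SD of each group. Filled points are earlier runs and open points later runs. S phase sums reach 1265 CPM at most in normal B cells and 1488 CPM or more in every lymphoma.

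Exons shared with a gene on the opposite strand also limit 6 other members. Ccnd3 shares 361 bases with Bysl, a ribosome assembly factor, which was itself higher in Myc than in vector lymphomas (0.90 ± 0.16, adjusted p = 0.000158 by edgeR) at 51.0 CPM in Myc lymphomas and 27.3 CPM in vector lymphomas. Rb1 shares 408 bases with Lpar6 (0.80, 0.0148) and 488 bases with Rcbtb2 (0.62, 0.00126), both higher in Myc than in vector lymphomas. Ccne2 shares 609 bases with Ints8 (-0.30, 0.18), and Ccnd1 shares 1100 bases with LTO1 (-0.59, 0.013), lower in Myc than in vector lymphomas. Ccnd2 shares 368 and 372 bases with 2 antisense RNAs and Cdk6 shares 368 bases with 1, for which no counts were used here. Reads in these stretches cannot be told apart without strand. The counts also hold a line of ambiguous reads, 0.214 to 0.365% of all reads, which stayed out of the gene counts. No source used here tells whether reads in these stretches went to that line or to a gene.

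For the 3 genes with the widest spread over the 20 libraries, the genes with the most similar pattern were found by the root mean square difference of centred log2 CPM. The pattern of Ccne2 was closest to Fignl1 (0.38), Ckap2 (0.42) and Anln (0.43). That of Ccne1 was closest to Pfkm (0.28), Metap2 (0.31) and Recql4 (0.31). That of Ccnd1 was closest to Jaml (0.41), Tbc1d8 (0.41) and Cacnb3 (0.46). These are descriptions over libraries that share groups and runs.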

How the data were processed

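The deposited table holds raw counts per Ensembl gene, 1 column per sample, and no scaling by the authors is recorded. Per the submitters' processing notes, BWA 0.7.5a, Picard 1.119 and HTSeq were used and the builds named are mm9 and NCBIM37; their roles and order are not given. Per the labels' protocols, polyadenylated RNA was fragmented with RNase III, amplified by 16 PCR cycles and sequenced on Ion Proton instruments. The table lists 37620 genes, 25632 of them with a count, and 5 lines that name no gene. Those 5 lines stayed out of library sizes and tests, and 37.1 to 57.0% of reads were counted to genes. The share of reads with several alignments was highest in the Myc group (22.2 to 40.3%), ahead of the vector group (15.4 to 31.3%) and the normal group (14.3 to 17.9%), and the ranges of the lymphoma groups overlapped.

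Genes were kept with filterByExpr by group (17824). TMM factors were used, and the test was that of edgeR 4.0.16 (quasi-likelihood F test, two-sided, R 4.3.3) in 1 fit of 20 libraries. An adjusted p (Benjamini-Hochberg) under 0.05 was called. The common biological coefficient of variation was 0.465. CPM use TMM-scaled library sizes, and log2 CPM a prior count of 2. Alternatives were RLE, upper quartile and no scaling, no filter, DESeq2 1.42.0, 2-group fits, the earlier runs, a run term, the number ending each title as a block, and leaving out each library.

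Gene names, exon lengths and exon overlaps came from GENCODE vM21, another build than that of the counts, so levels per kilobase are approximate. CPM per kb used the APPRIS principal transcript. The members and gene lists were chosen with earlier results of these data known. Named genes are the 10 members, up to 4 genes per list, direction and comparison with the smallest p among those called, the 3 nearest genes of the 3 widest members, and Myc. Dcn, Skp2 in vector lymphomas against normal B cells, Lin9, Lin37, Lin54 and the genes that share exons with members were named outside this rule, after their values were seen. Cdkn2d, a 36th gene of the G1 list, was not analysed here. Replicates were numbered in accession order.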

Additional observations from a re-analysis of the deposited data

Results flagged for a closer look

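In each of the 30 sets of a gene and a group, the highest and lowest library was compared with its neighbour by Dixon's test, which flags about 1 in 20 groups by chance, and 4 sets stood out. Cdk4 was 582 CPM in Myc replicate 5, and the next Myc lymphoma held 281 CPM. Cdkn2c was 30.6 CPM in Myc replicate 8, and the next Myc lymphoma held 21.8 CPM. Ccnd1 was 41.1 CPM in vector replicate 8, and the next vector lymphoma held 24.8 CPM. Ccne2 was 16.4 CPM in vector replicate 6, and the next vector lymphoma held 9.94 CPM.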

How the results depend on the processing

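Over 29 alternative settings the 10 genes gave 870 log2 fold changes, of which 811 kept direction and side of the threshold, 51 lost their call, 6 gained one and 2 turned round. Those 2 were in vector lymphomas over normal B cells: Ccne1 at -0.114 within the earlier runs and Cdk4 at -0.0139 with library size alone. Neither was called over all libraries or in the fit that turned it round. Library size alone shifted the median of all genes by -0.18 in Myc lymphomas over normal B cells and by -0.15 in vector lymphomas over normal B cells.

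Within the earlier runs, Myc against vector lymphomas called 1 of the 10 genes (8 over all libraries), 4 other G1 genes (21), 4 S phase genes (18), 2 mitosis genes (13) and 1363 of all genes (8654). Myc lymphomas against normal B cells called 4 of the 10 genes (8) and 3820 of all genes (7025). Vector lymphomas against normal B cells called 0 of the 10 genes (3), 1 other G1 gene (7), 0 S phase genes (18), 0 mitosis genes (16) and 123 of all genes (1928) with edgeR, and 1782 genes had an unadjusted p under 0.05. Fewer vector libraries, 2 in place of 8, enter these fits. With the run term, Myc against vector lymphomas called 3 of the 10 genes and 3382 of all genes, and vector lymphomas against normal B cells called 3 other G1 genes, 8 S phase genes and 1225 of all genes. Fitting only the 2 groups compared gave 3503 of all genes for vector lymphomas against normal B cells.

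The title numbers did not pair the libraries: deviations of same-numbered libraries had a median correlation of -0.023 over 24 pairs. With the replicate block, vector lymphomas against normal B cells called 3 other G1 genes, 10 mitosis genes and 1267 of all genes, and Cdk6 (adjusted p = 0.0821) and Cdkn2c (0.101) lost their calls between Myc and vector lymphomas. The cause of these changes was not tested.

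Cdk6 also lost its call between Myc and vector lymphomas with library size alone (0.0531), no filter (0.0621) and 2 groups (0.0516), Cdkn1b with library size alone (0.0507) and Cdkn2c with upper quartile scaling (0.0636). Against normal B cells, Cdkn2c in Myc lymphomas lost it with library size alone (0.083) and Rb1 with 2 groups (0.0707), and Cdkn1b in vector lymphomas gained it with 2 groups (0.0454). When 1 library was left out at a time, vector lymphomas against normal B cells called 2 to 9 other G1 genes, 9 to 22 S phase genes and 1089 to 2979 of all genes, the last without Myc replicate 5. Without normal replicates 1, 3 and 4 these counts of all genes were 1207, 1089 and 1118. The lowest count of the 10 genes in any library was 82.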
